A study of Mus musculus with 12 samples.

Results

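The 9 growth arrest genes described here, Cdkn1a, Gadd45a, Gadd45b, Gadd45g, Mdm2, Btg2, Ccng1, Trp53inp1 and Sesn2, were chosen by name, and all 9 were found by symbol among 25611 genes in RNA-seq of whole mouse liver. All 9 passed the filter on low counts, which left 13190 genes for testing. The livers came from 12 male C57BL/6J mice aged 8 to 10 weeks, 4 per group, and were collected 30 hr post-surgery. Sham mice had the abdomen opened only. CLP mice underwent cecal ligation and puncture, in which the tied-off cecum is pierced so that gut bacteria reach the abdominal cavity and a polymicrobial sepsis develops. CLP+DCA mice had the same operation and received dichloroacetate (DCA), an inhibitor of the pyruvate dehydrogenase kinases, intraperitoneally at 25 mg/kg 24 hr post-surgery, 6 hr before collection. All 12 mice were given saline under the skin, and what the sham and CLP mice were injected with at 24 hr is not given in the sources used here. Each value is from 1 mouse, with 24436513 to 44266819 reads counted on genes per mouse.

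The transcription factor p53 is stabilized by DNA damage and other stress and binds response elements in genes that stop the cell cycle, repair DNA or lead to cell death. Cdkn1a encodes p21, an inhibitor of cyclin-dependent kinases and the classic p53 target, while Mdm2 encodes the ubiquitin ligase that removes p53 and is itself a p53 target. The GADD45 genes, named for growth arrest and DNA damage, encode small proteins that bind the kinase MEKK4, PCNA and the CDK1-cyclin B complex. Their members respond to different signals, Gadd45a to p53 and other stress, Gadd45b and Gadd45g also to cytokines. In liver, p21 and the GADD45 proteins are known from regeneration and injury, where they restrain or time the entry of hepatocytes into the cell cycle.

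Septic livers held more Cdkn1a mRNA than every sham liver, and the other 8 genes showed smaller differences or none that the spread between mice allowed to be seen. In CPM, read counts scaled to normalized library size, Cdkn1a averaged 0.664 ± 0.109 in sham and 39.4 ± 47.1 in CLP (mean ± SD, n = 4 each). None of the 9 genes passed a false discovery rate (FDR) of 0.05 in edgeR's quasi-likelihood test in CLP versus sham, where 2.78% of all genes tested did. At an unadjusted p under 0.05 were 2 of the 9, Cdkn1a and Gadd45g, where 28.6% of all genes were. The values of 1 of the 9, Cdkn1a, did not overlap between the groups, where 26.5% of all genes did not. DESeq2 on all 12 mice called Cdkn1a alone, 1 of the 9, where it called 13.0% of the genes it tested, and voom with sample quality weights called 3 (Cdkn1a, Gadd45b and Btg2), where it called 25.9%. On the 8 mice of these 2 groups alone, DESeq2 called 3 (Cdkn1a, Gadd45b and Gadd45g), where it called 23.3%, and edgeR 2 (Cdkn1a and Gadd45b), where it called 18.3%. At an FDR of 0.1 in the fit of all mice 1 gene passed, Cdkn1a, where 15.3% of all genes did. Which of the 9 were called thus depended on the fit.

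One mouse stood apart from its group. On the first principal component of all genes tested, which held 59.2% of the variance, sham mice lay between -40.6 and -33.1, CLP mice between 8.66 and 72.8, and 3 of the CLP+DCA mice between -28.9 and -16.4. CLP+DCA replicate 3 lay at 82.6, beyond every CLP mouse. Because all groups share an estimate of the spread, this mouse also bears on CLP versus sham: without it, edgeR called 23.8% of all genes in that comparison and 1 of the 9, Cdkn1a, and at an unadjusted p under 0.05 were 5 of the 9 (also Gadd45b, Gadd45g, Mdm2 and Btg2), where 39.2% of all genes were. Results that rest on this mouse are given with and without it. Of 8 hepatocyte markers, 7 were abundant in every mouse (at least 15302 reads each), and Ass1 was at 1 to 33 reads, far below its known abundance in liver. In whole tissue, fewer cells of a type and less RNA per cell cannot be told apart.

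**Figure D1:**
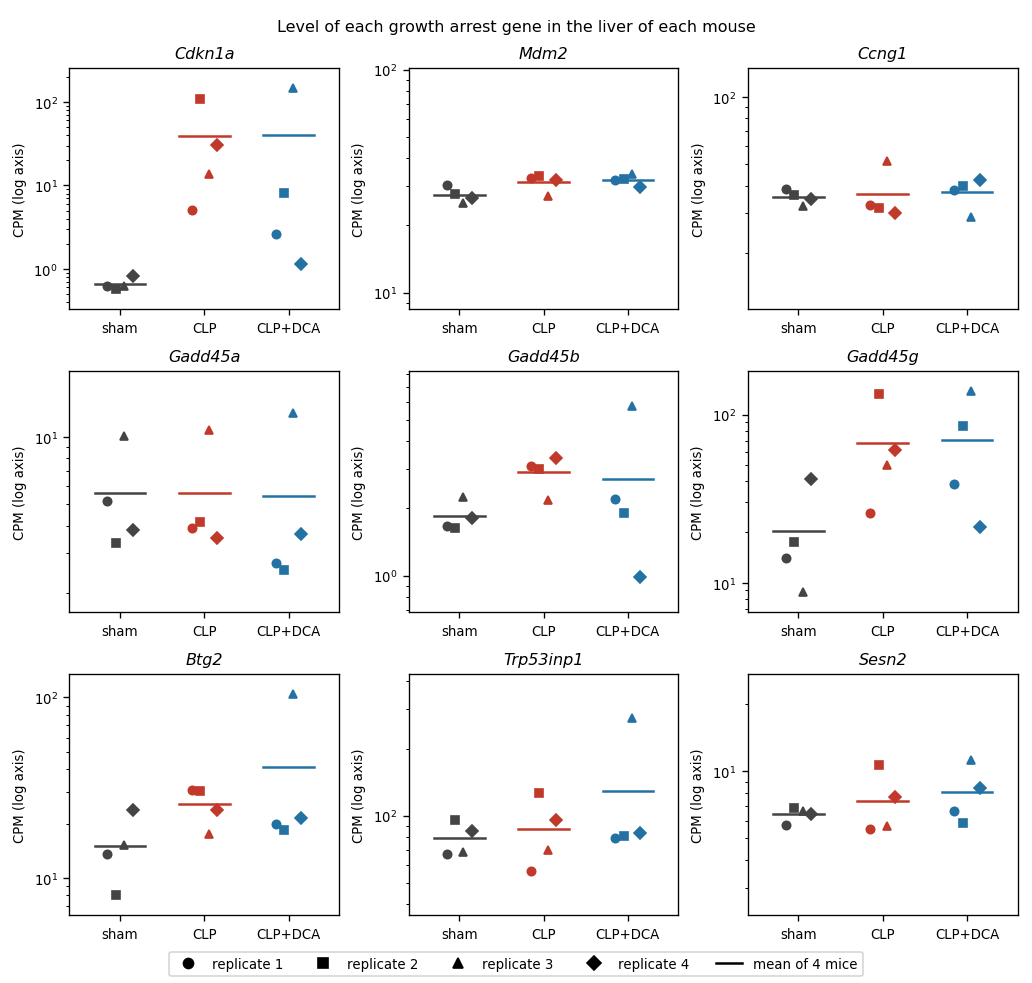
Level of the 9 growth arrest genes in each of the 12 mice, in CPM on a log axis (each panel with its own range), by group. Symbols mark the replicate number, and horizontal lines the mean of 4 mice. Cdkn1a of every CLP and CLP+DCA mouse lies above the 4 sham mice, at 0.57 to 0.82 CPM, while Mdm2 and Ccng1 stay within narrow ranges.

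Cdkn1a (NCBI Gene 12575, chromosome 17 from 29090979 to 29100722, plus strand, mm10) was the gene with the widest range. In sham replicates 1 to 4 it had 0.63, 0.57, 0.63 and 0.82 CPM, from 17 to 30 reads per mouse. In CLP replicates 1 to 4 it had 5.14, 108.3, 13.8 and 30.3 CPM, from 223 to 2262 reads. Every CLP mouse was above every sham mouse, but the CLP mice spanned a wide range among themselves, with replicate 1 lowest and replicate 2 highest. The log2 fold change was 5.87 (SE 1.65, 95% interval 2.27 to 9.47), with an unadjusted p of 0.00409 and an adjusted p of 0.0685 from edgeR's quasi-likelihood test, not past the FDR. Without CLP+DCA replicate 3, the log2 fold change was 5.87 (SE 1.10) and the adjusted p 0.00813 by the same test. DESeq2 on all 12 mice gave an adjusted p of 0.000323. A gene on the opposite strand, AC167363.2, overlaps Cdkn1a in the annotation, and the strand setting of the counting is not given in the sources used here, so that their reads could be mixed.

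After DCA, Cdkn1a was at 2.59, 8.17, 147.1 and 1.15 CPM in CLP+DCA replicates 1 to 4. Replicate 3 held the highest level of all 12 mice, while replicates 1 and 4 were below every CLP mouse and replicate 2 was between CLP replicates 1 and 3. CLP+DCA versus CLP gave a log2 fold change of 0.02 (SE 1.25, 95% interval -2.70 to 2.75, adjusted p = 0.996, edgeR's quasi-likelihood test). Without replicate 3 it was -3.31 (SE 1.03, unadjusted p = 0.00989, adjusted p = 0.0825), so that a single mouse decided both the direction and the size. Every CLP+DCA mouse was above every sham mouse (log2 fold change 5.90, SE 1.65, adjusted p = 0.250 with all mice, and 2.56, adjusted p = 0.532, without replicate 3).

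The mice with the most Cdkn1a were also those with the largest acute phase response. CLP+DCA replicate 3, CLP replicate 2 and CLP replicate 4, with 147.1, 108.3 and 30.3 CPM of Cdkn1a, lay highest on the first principal component, at 82.6, 72.8 and 46.3. The same 3 mice had the highest summed level of 28 acute phase genes (386281, 423324 and 385204 CPM, against at most 252818 in any other mouse). The summed level of 11 neutrophil markers was 6.46 to 9.30 CPM in sham, 32.1 to 45.9 in CLP and 6.77 to 60.8 in CLP+DCA, highest in CLP+DCA replicate 3. The largest parts of this sum were S100a8 and S100a9, with means of 11.0 and 13.6 CPM in CLP. Of 10 neutrophil markers tested, 9 were higher in CLP than in sham, among them Elane at 0.35 on the log2 scale (adjusted p = 0.673, edgeR). The remaining marker, Ly6g, was lower, at -0.78 (adjusted p = 0.136, edgeR). Of the 11, Ngp and Ltf were at 0 in 3 mice each and Mpo in 5, and the other 8 had reads in every mouse. The 4 cholangiocyte markers, none of them at 0 in any mouse, summed to 6.17 to 10.2 CPM in sham, 16.5 to 54.0 in CLP and 8.33 to 73.7 in CLP+DCA. Most of this sum was Sox9, with up to 51.1 CPM in CLP and 71.0 CPM in CLP+DCA, whereas Krt19 lay between 0.65 and 0.83 CPM in CLP+DCA. All 4 markers were higher in CLP than in sham. On the log2 scale Sox9 was at 2.13 (adjusted p = 0.133, edgeR) and Krt19 at 1.44 (adjusted p = 0.0544, edgeR). Krt7 was at 1.23 (adjusted p = 0.0980, edgeR) and Epcam at 0.11 (adjusted p = 0.820, edgeR). Without CLP+DCA replicate 3, edgeR called 3 of the 4 higher, all but Epcam, where 23.8% of all genes were called. The sum thus mostly gives the level of Sox9. The 8 hepatocyte markers summed to 62065 to 81423 CPM in sham and 28373 to 44535 CPM in CLP, with 25695 CPM, the lowest of all mice, in CLP+DCA replicate 3 and 28373 CPM in CLP replicate 2. Most of this sum was Alb, which encodes albumin, with a mean of 46672 CPM in sham and 21571 CPM in CLP. Alb fell in CLP versus sham (log2 fold change -1.11, adjusted p = 0.0463, edgeR's quasi-likelihood test). By the same test, Apoa1 was at -0.21 (adjusted p = 0.521), Tat at -0.33 (adjusted p = 0.359) and Hnf4a at 0.05 (adjusted p = 0.783). Of the 8 hepatocyte markers, 7 were lower and 1, Hnf4a, was higher. Other marker sums of CLP+DCA replicate 3 were not extreme in its group. The Kupffer cell and macrophage markers summed to 211.8 CPM there, where CLP+DCA mice spanned 202.9 to 404.5. The endothelial markers summed to 119.2 CPM, within 88.9 to 131.9. The lymphocyte markers, at few reads, summed to 0.54 CPM, the lowest of CLP+DCA. The part of these cell types and of the acute phase response in the level of Cdkn1a was not tested.

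Over the 12 mice, the genes outside the 9 whose log2 CPM followed Cdkn1a most closely, among 11608 genes with a mean of at least 1 CPM, were Rasd1 (Pearson's r = 0.99), Cd14 (0.99) and Slc10a6 (0.99). Without CLP+DCA replicate 3 the 3 correlations were also 0.98 to 0.99. Rasd1 encodes a small GTPase induced by glucocorticoids, and Cd14 the co-receptor for bacterial endotoxin. These correlations span group differences and libraries, and describe only that the levels ordered the mice alike. Among the other 8 growth arrest genes, Gadd45g followed Cdkn1a most closely (r = 0.89, and 0.86 without CLP+DCA replicate 3), whereas Gadd45a (0.26, and -0.07 without that mouse) and Ccng1 (-0.33 and -0.14) did not follow it.

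To show what the genes' upstream sequences share, the 250 bases before each RefSeq start were searched (build GRCm38.p6). RefSeq starts were at hand for 8 of the 9 genes, 9 starts in all, 2 of them for Cdkn1a, and none for Trp53inp1. The search covered, on both strands, the p53 response element half-site by its consensus, the TATA box (TATAAA), the CCAAT box (CCAAT), the E-box (CACGTG), the CRE (TGACGTCA) and the AP-1 motif (TGANTCA). It also covered a STAT motif (TTCNNNGAA), an NF-kappaB motif (GGGNNTTCC) and the GC box (GGGCGG). Sequences are given 5′ to 3′ on the gene's own strand, with matches to the p53 half-site, TATA box, CCAAT box, E-box and CRE in capitals. They are shown for Cdkn1a, its upstream start, and for Mdm2 and Ccng1, 2 p53 targets whose levels barely moved.
Cdkn1a, chr17:29090729-29090978, plus strand: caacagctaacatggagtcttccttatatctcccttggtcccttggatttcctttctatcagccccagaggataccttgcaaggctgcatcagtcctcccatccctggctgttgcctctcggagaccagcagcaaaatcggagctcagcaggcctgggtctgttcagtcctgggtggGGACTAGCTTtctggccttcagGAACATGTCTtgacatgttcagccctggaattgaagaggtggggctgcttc
Mdm2, chr10:117710759-117711008, minus strand: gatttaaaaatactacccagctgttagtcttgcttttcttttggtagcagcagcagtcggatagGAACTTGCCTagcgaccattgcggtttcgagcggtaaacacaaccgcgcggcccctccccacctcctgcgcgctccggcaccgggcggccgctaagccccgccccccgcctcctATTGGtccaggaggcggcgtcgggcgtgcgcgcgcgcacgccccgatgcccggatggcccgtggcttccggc
Ccng1, chr11:40755287-40755536, minus strand: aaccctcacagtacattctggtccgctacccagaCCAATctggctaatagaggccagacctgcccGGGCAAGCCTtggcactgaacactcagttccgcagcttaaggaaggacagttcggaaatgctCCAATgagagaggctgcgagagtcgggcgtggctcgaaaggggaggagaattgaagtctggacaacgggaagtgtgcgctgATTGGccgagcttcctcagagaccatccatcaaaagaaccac

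Matches to the p53 half-site lay in the windows of 4 of the 9 starts, against 7.13% of all 32851 RefSeq promoter windows of that length. These were the upstream start of Cdkn1a, with GGACTAGCTT 73 bases and GAACATGTCT 51 bases before it, Mdm2 with GAACTTGCCT at 186 bases, Ccng1 with GGGCAAGCCT at 185 bases and Gadd45a with GGGCTAGCCC at 40 bases. The window of the other Cdkn1a start held no such match. The differences of these 4 genes in sepsis ranged from none visible to that of Cdkn1a, and the part of the matches in them was not tested. AP-1, STAT and NF-kappaB motifs had no match in any of the 9 windows, against 6.75%, 7.02% and 4.98% of all windows. A match to these letters is a description of the sequence and not a binding site, and the absence of a match covers only these windows.

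Mdm2 (NCBI Gene 17246, chromosome 10 from 117688875 to 117710758, minus strand) had 30.5, 27.6, 25.3 and 26.5 CPM in the 4 sham mice. It had 32.7, 33.4, 27.1 and 32.1 CPM in the 4 CLP mice and 32.0, 32.2, 33.9 and 29.8 CPM in the 4 CLP+DCA mice. The ranges of sham and CLP overlapped through CLP replicate 3 alone. Mdm2 had the smallest standard error of the 9 genes: the log2 fold change was 0.19 in CLP versus sham (SE 0.09, 95% interval -0.00 to 0.38, adjusted p = 0.175) and 0.22 in CLP+DCA versus sham (SE 0.09, adjusted p = 0.328, edgeR's quasi-likelihood test). CLP+DCA versus CLP gave 0.03 (95% interval -0.16 to 0.22).

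Ccng1 (NCBI Gene 12450, chromosome 11 from 40748552 to 40755286, minus strand) encodes cyclin G1, a p53 target that recruits a phosphatase to Mdm2. It had 38.7, 36.2, 32.4 and 34.7 CPM in sham, 32.6, 31.6, 51.7 and 30.1 CPM in CLP and 38.1, 39.9, 29.0 and 42.2 CPM in CLP+DCA. Outside CLP replicate 3, the CLP mice lay at the lower end of sham or under it, and CLP+DCA replicate 3 was the lowest of all 12 mice. No difference was visible in CLP versus sham (log2 fold change 0.04, 95% interval -0.33 to 0.42), which bounds the change well below that of Cdkn1a.

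**Figure D2:**
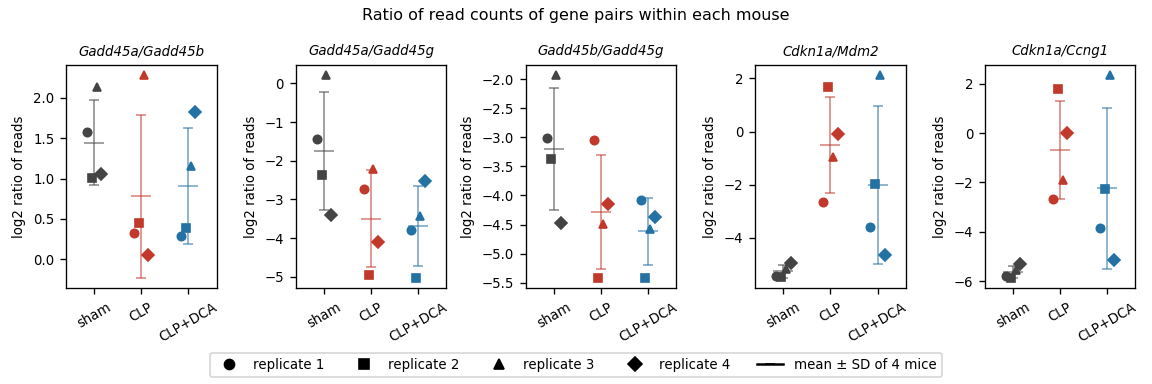
Within-mouse log2 ratio of the read counts, with 2 added to each, of 5 pairs of growth arrest genes in the 12 mice, by group. Symbols are mice, bars the mean ± SD of 4 mice. The ratios of Cdkn1a to Mdm2 and of Cdkn1a to Ccng1 are above all 4 sham mice in every CLP and CLP+DCA mouse, and the ratios among the GADD45 genes overlap between groups.

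The ratio of the reads of 2 genes within a mouse, with 2 added to each count, uses no scaling of its library. It compares Cdkn1a with the other p53 targets directly, and the added count bears on it where reads are few. The log2 ratio of Cdkn1a to Mdm2 was between -5.48 and -4.92 in the 4 sham mice. It was -2.66, 1.70, -0.97 and -0.08 in CLP replicates 1 to 4 and -3.60, -1.97, 2.12 and -4.63 in CLP+DCA replicates 1 to 4. Thus in sham livers Mdm2 was read far more often than Cdkn1a, and in CLP replicate 2 and CLP+DCA replicate 3 Cdkn1a was read more often. The mean ratio was 4.75 higher in CLP than in sham and 3.24 higher in CLP+DCA than in sham (two-sided exact permutation tests, p = 0.0286 each, the smallest that 4 against 4 mice allow, and 0.107 when adjusted over 15 tests). Against Ccng1, the ratio was 4.93 higher in CLP and 3.40 higher in CLP+DCA than in sham, with the same p-values by exact permutation tests. After the adjustment, 0 of the 15 ratio tests was past 0.05, and 4 had an unadjusted p under 0.05.

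The 3 GADD45 genes were at different levels and gave different values. Gadd45g had the largest fold change of the 3 and the highest level per length, Gadd45b had a smaller fold change that some of the tests called, and Gadd45a gave no visible difference between groups.

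Gadd45g (NCBI Gene 23882, chromosome 13 from 51846675 to 51848474, plus strand) had 14.1, 17.5, 8.77 and 41.2 CPM in sham replicates 1 to 4. In CLP it had 26.1, 133.2, 50.1 and 61.4 CPM, and in CLP+DCA 38.4, 85.0, 138.2 and 21.5 CPM. Sham replicate 4 lay above CLP replicate 1, so that the groups overlapped. The log2 fold change in CLP versus sham was 1.73 (SE 0.66, 95% interval 0.28 to 3.18, unadjusted p = 0.0236, adjusted p = 0.121, edgeR's quasi-likelihood test), and DESeq2 on the 8 mice compared gave an adjusted p of 0.0371. CLP+DCA versus CLP gave 0.07 (SE 0.64), and -0.48 (adjusted p = 0.667) without CLP+DCA replicate 3. The genes most like Gadd45g over the 12 mice were Slc35a4 (r = 0.96), Lurap1l (0.96) and AW554918 (0.96).

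Gadd45b (NCBI Gene 17873, chromosome 10 from 80930091 to 80932204, plus strand) was low, with 1.67, 1.63, 2.25 and 1.81 CPM in sham from 45 to 71 reads per mouse. The CLP mice had 3.11, 3.02, 2.18 and 3.37 CPM, and the CLP+DCA mice 2.20, 1.92, 5.74 and 0.99 CPM. Only CLP replicate 3 among the CLP mice fell into the sham range. The log2 fold change in CLP versus sham was 0.66 (SE 0.42, adjusted p = 0.300, edgeR's quasi-likelihood test). The adjusted p was 0.0376 by voom with sample quality weights and 0.0223 by DESeq2 on the 8 mice compared, and 0.0662 by edgeR without CLP+DCA replicate 3. CLP+DCA versus CLP was -0.10 with all mice and -0.77 (adjusted p = 0.0929, edgeR) without CLP+DCA replicate 3. Its level was most like those of Rspo3 (r = 0.94), Pkmyt1 (0.92) and Atf4 (0.92), the last a transcription factor of the integrated stress response.

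Gadd45a (NCBI Gene 13197, chromosome 6 from 67035096 to 67037407, minus strand) had 5.13, 3.34, 10.1 and 3.83 CPM in sham. It had 3.92, 4.17, 10.8 and 3.50 CPM in CLP and 2.71, 2.52, 12.8 and 3.66 CPM in CLP+DCA. The mouse numbered 3 was the highest in each group, and the other mice of the 3 groups overlapped. In CLP versus sham the log2 fold change was 0.01 (95% interval -1.27 to 1.28), too wide an interval to tell a difference of that size from none. The opposite-strand gene E230016M11Rik overlaps Gadd45a. Closest to it over the 12 mice were Rit1 (r = 0.93), Grb10 (0.88) and Zswim6 (0.86).

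The start regions of Gadd45b and Gadd45g are shown because both hold, within the 250 bases, a TATA box and an E-box, which no other of the 9 windows held.
Gadd45b, chr10:80929841-80930090, plus strand: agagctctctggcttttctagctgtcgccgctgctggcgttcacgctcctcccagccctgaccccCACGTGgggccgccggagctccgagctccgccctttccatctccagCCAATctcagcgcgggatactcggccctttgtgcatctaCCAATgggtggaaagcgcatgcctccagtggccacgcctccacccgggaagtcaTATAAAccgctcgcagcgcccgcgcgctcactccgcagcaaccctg
Gadd45g, chr13:51846425-51846674, plus strand: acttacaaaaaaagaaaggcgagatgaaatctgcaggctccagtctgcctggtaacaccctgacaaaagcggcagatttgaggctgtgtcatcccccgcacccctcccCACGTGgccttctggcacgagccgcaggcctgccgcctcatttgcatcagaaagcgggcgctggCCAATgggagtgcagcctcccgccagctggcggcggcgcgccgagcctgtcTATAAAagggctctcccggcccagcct

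The TATA box lay 46 bases before the start of Gadd45b and 27 bases before that of Gadd45g (12.4% of all windows held one), and the E-box 185 and 142 bases before (6.02%). The CCAAT box, present in 33.8% of all windows, was found in 7 of the 9, and the GC box, present in 32.7%, in 6. As ratios within a mouse, Gadd45a to Gadd45g differed by -1.75 on the log2 scale in CLP from sham (mean -3.50 ± 1.26 and -1.75 ± 1.53, SD, n = 4 each, two-sided exact permutation test, p = 0.143, adjusted p = 0.306). In CLP+DCA, at -3.70 ± 1.04, the difference from sham was -1.946 (exact permutation test, p = 0.0571, adjusted p = 0.171). Gadd45b to Gadd45g was 1.08 lower in septic than in sham livers (p = 0.200 by the exact permutation test). A difference in response between these paralogs was not shown.

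Btg2 (NCBI Gene 12227, chromosome 1 from 134074865 to 134079155, minus strand) encodes an antiproliferative protein that binds the CCR4-NOT deadenylase and is a known p53 target. It had 13.5, 8.02, 15.2 and 23.7 CPM in sham, 30.6, 30.4, 17.6 and 23.8 CPM in CLP and 20.0, 18.3, 104.7 and 21.5 CPM in CLP+DCA. CLP replicates 1, 2 and 4 were above all sham mice, the last of them by a small margin, and CLP+DCA replicate 3 exceeded every other mouse. The log2 fold change in CLP versus sham was 0.76 (SE 0.55, adjusted p = 0.363, edgeR's quasi-likelihood test), and voom with sample quality weights gave an adjusted p of 0.0429. CLP+DCA versus sham gave 1.45 (SE 0.56, unadjusted p = 0.0239, adjusted p = 0.321), and without CLP+DCA replicate 3 it was 0.40 (adjusted p = 0.749). Of the 9 windows, that of Btg2 was the one with a CRE, 166 bases before its start (1.55% of all windows).

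Trp53inp1 (NCBI Gene 60599, chromosome 4 from 11156441 to 11174377, plus strand) encodes a p53-induced nuclear protein that acts in cell death and autophagy. It had 67.6, 95.7, 68.4 and 85.1 CPM in sham, 56.5, 126.1, 70.05 and 95.5 CPM in CLP and 79.7, 81.2, 273.6 and 83.9 CPM in CLP+DCA. The sham range lay within the CLP range, and 3 of the CLP+DCA mice were within the sham range. Against sham, CLP+DCA gave 0.71 on the log2 scale (SE 0.40, adjusted p = 0.453, edgeR's quasi-likelihood test) and 0.04 without CLP+DCA replicate 3.

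Sesn2 (NCBI Gene 230784, chromosome 4 from 132492807 to 132510456, minus strand) encodes sestrin 2, a stress-induced leucine sensor that restrains mTORC1. It had 5.77, 6.86, 6.62 and 6.43 CPM in sham, 5.51, 10.7, 5.66 and 7.63 CPM in CLP and 6.67, 5.85, 11.2 and 8.43 CPM in CLP+DCA. CLP replicate 2 and CLP+DCA replicate 3 were the highest, and CLP replicates 1 and 3 were below every sham mouse. The log2 fold change was 0.19 in CLP versus sham (SE 0.24, 95% interval -0.33 to 0.71). Gm12981, on the same strand, overlaps the gene. Over the 12 mice Sesn2 and Trp53inp1 followed each other (r = 0.86, and 0.84 without CLP+DCA replicate 3).

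**Figure D3:**
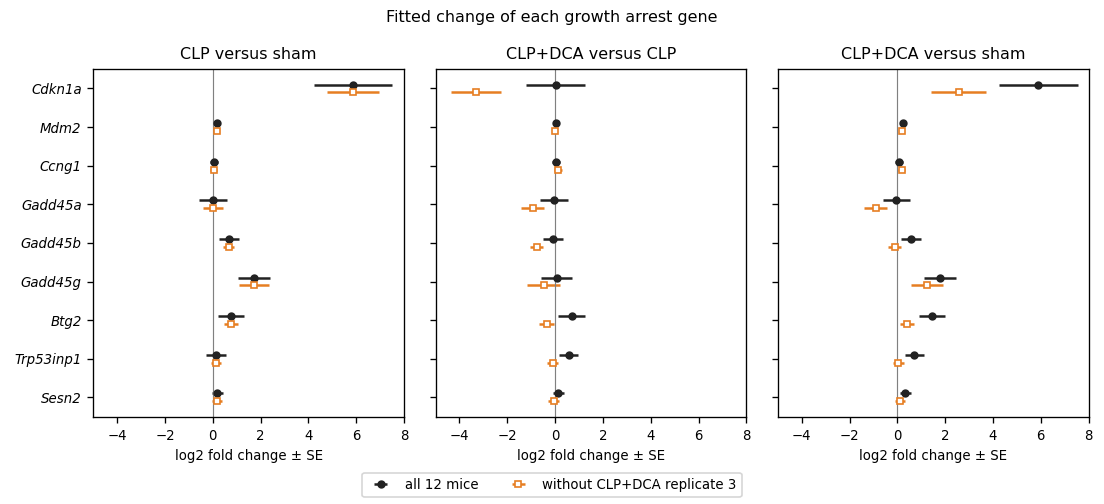
Fitted log2 fold change ± SE of the 9 growth arrest genes in the 3 comparisons, with all 12 mice (filled) and without CLP+DCA replicate 3 (open). Cdkn1a in CLP+DCA versus CLP moves from 0.02 to -3.31, while in CLP versus sham the estimates barely move and their errors shrink.

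In CLP+DCA versus CLP, none of the 9 genes passed the FDR, where 0.00758% of all genes did by edgeR's quasi-likelihood test. None had an unadjusted p under 0.05 (10% of all genes), none was without overlap between the groups (4.37%), and DESeq2 (0.815%) and voom (9.76%) called none. Without CLP+DCA replicate 3, edgeR called 4.64% of all genes and none of the 9, and at an unadjusted p under 0.05 were 2 of the 9, Cdkn1a and Gadd45b, both with the lower level after DCA, where 28.2% of all genes were. In CLP+DCA versus sham, edgeR called none of the 9 (0.0379% of all genes, and 0.0828% without that mouse). At an unadjusted p under 0.05 were 4 of the 9, Cdkn1a, Gadd45g, Mdm2 and Btg2 (13.0% of all genes), and without CLP+DCA replicate 3 none of the 9 was (9.38%). Cdkn1a alone did not overlap (9.76%), DESeq2 on all mice called it (1.83%), and voom called none (3.59%). The comparisons share mice, CLP+DCA versus CLP with CLP versus sham the CLP mice and both comparisons against sham the sham mice, and are not independent.

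Of the 9 genes, 8 had their highest level of all 12 mice in CLP+DCA replicate 3, and the remaining gene, Ccng1, had its lowest level there. In the 3 other CLP+DCA mice, Cdkn1a lay between 1.15 and 8.17 CPM, Gadd45b between 0.99 and 2.20 CPM and Gadd45a between 2.52 and 3.66 CPM. The labels and methods give nothing that sets CLP+DCA replicate 3 apart. Whether this mouse was treated as its label says cannot be told from the counts, and every value of the CLP+DCA group with all 4 mice depends on it.

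Compared per length, as CPM per kilobase of exon, the 9 genes kept a wide range in sham. Gadd45g was highest at 17.4 ± 12.2, followed by Trp53inp1 at 12.2 ± 2.11, Ccng1 at 10.1 ± 0.743, Btg2 at 5.50 ± 2.36 and Mdm2 at 5.40 ± 0.440 CPM per kilobase. Gadd45a had 3.18 ± 1.76, Sesn2 1.85 ± 0.135, Gadd45b 1.16 ± 0.177 and Cdkn1a 0.187 ± 0.0306 CPM per kilobase (mean ± SD, n = 4 mice). Within this order the ranges of the sham mice overlapped among Gadd45g, Trp53inp1 and Ccng1, and among Btg2, Mdm2 and Gadd45a. Gadd45g (from 7.48) also overlapped Btg2 (up to 8.63), and Gadd45a (from 1.89) overlapped Sesn2 (up to 1.97 CPM per kilobase). In CLP, the mean of Cdkn1a was 11.1 ± 13.3 CPM per kilobase, place 3 of the 9, beside Trp53inp1 (13.4 ± 4.73) and Ccng1 (10.4 ± 2.91). That place rests on CLP replicate 2: without it the mean was 4.62 CPM per kilobase, and the median of the 4 mice was 6.21, both at place 6. Gadd45g was highest in CLP at 57.7 ± 39.3 CPM per kilobase, and also without that mouse (39.1).

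The genes around these 9 were examined as lists. Of 29 other p53 target genes tested, 14 were higher and 15 lower in CLP than in sham, and their median log2 fold change was -0.03, near that of all genes tested (0.02). At an unadjusted p under 0.05 were 9 of the 29, where 28.6% of all genes were. Past the FDR were 2 of the 29, in opposite directions, where 2.78% of all genes passed. Fas, a death receptor, rose: the sham mice had between 20.4 and 22.5 CPM and the CLP mice between 29.5 and 45.3 CPM (log2 fold change 0.79, SE 0.14, adjusted p = 0.0254, edgeR's quasi-likelihood test). Plk2, a polo-like kinase, fell: the sham mice had between 8.37 and 10.7 CPM and the CLP mice between 4.07 and 5.48 CPM (log2 fold change -0.94, SE 0.12, adjusted p = 0.00845). Neither gene's groups overlapped. Without CLP+DCA replicate 3, 4 of the 29 were called higher and 3 lower, where 23.8% of all genes were called.

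Trp53, which encodes p53, was level across the groups: 12.8 to 14.7 CPM in sham, 12.4 to 15.9 in CLP and 14.0 to 14.9 in CLP+DCA. Its log2 fold change in CLP versus sham was 0.04 (SE 0.09). Of 12 genes of the p53 family and its upstream regulators, 1 passed the FDR, where 2.78% of all genes did. This was Trp63, which encodes the p53 homologue p63 of basal epithelia. It alone of the 12 had an unadjusted p under 0.05, where 28.6% of all genes had. Trp63 had 0 to 3 reads per sham mouse, 18 to 93 reads per CLP mouse and 1 to 28 reads per CLP+DCA mouse (adjusted p = 0.0476 in CLP versus sham, edgeR's quasi-likelihood test), and no fold is given against so few reads. Rchy1, a further ubiquitin ligase of p53, had the next smallest p in this list (log2 fold change -0.17, adjusted p = 0.197).

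**Figure D4:**
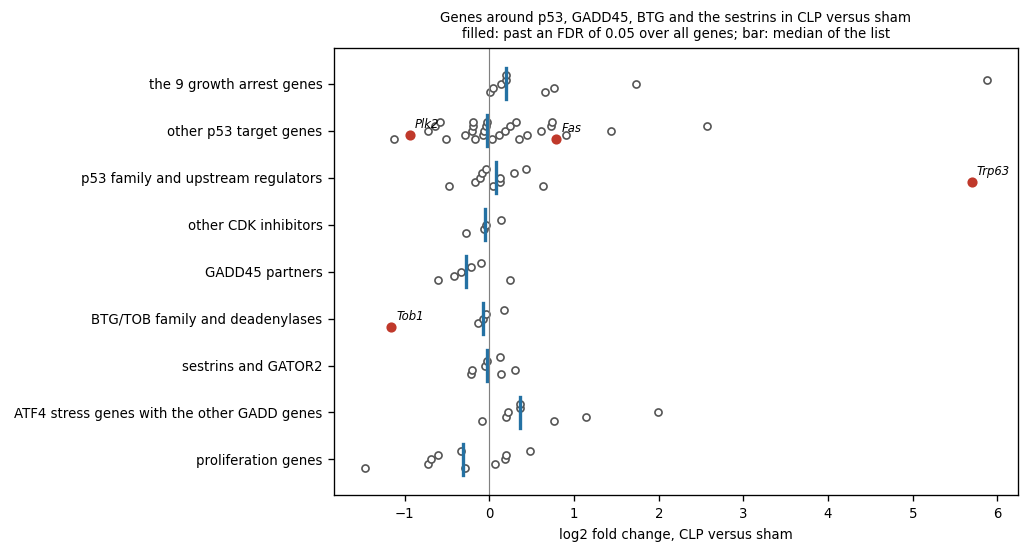
Log2 fold change in CLP versus sham of the 9 growth arrest genes and of the tested genes of 8 related lists. Each circle is a gene, filled where it passed an FDR of 0.05 over all genes tested, and bars are medians of the lists. The filled genes are Fas and Trp63, which were higher, and Plk2 and Tob1, which were lower.

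None of 4 other CDK inhibitor genes passed the FDR in CLP versus sham by edgeR's quasi-likelihood test, with Cdkn2d at -0.27 (adjusted p = 0.381) and Cdkn1b, which encodes p27, at -0.04 (adjusted p = 0.817), and 0 of the 4 had an unadjusted p under 0.05. Of 6 GADD45 partners none passed either, and 3 had an unadjusted p under 0.05. In this comparison, 2.78% of all genes passed the FDR and 28.6% had an unadjusted p under 0.05. Pcna, the sliding clamp of DNA replication, was at -0.41 (SE 0.11, adjusted p = 0.0580) and Mapk14, which encodes p38 alpha, at 0.24 (adjusted p = 0.0855). Without CLP+DCA replicate 3, Pcna (adjusted p = 0.0187), Mapk14 (adjusted p = 0.0395) and Map3k4 (log2 fold change -0.34, adjusted p = 0.0353) were called, 3 of the 6, where 23.8% of all genes were. Map3k4 encodes MEKK4, the kinase that GADD45 proteins activate. Among 5 genes of the BTG/TOB family and the deadenylases, Tob1 fell, with 97.5 to 149.7 CPM in sham and 43.9 to 69.3 CPM in CLP (log2 fold change -1.16, SE 0.21, adjusted p = 0.0257), while Cnot8 was at -0.14 (adjusted p = 0.234). Tob1, an antiproliferative relative of Btg2, was at 70.1 to 139.5 CPM in CLP+DCA.

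None of 7 genes of the sestrins and GATOR2, the complex that sestrins bind, passed the FDR or had an unadjusted p under 0.05 (Sec13 at 0.31, adjusted p = 0.217, and Seh1l at -0.21, adjusted p = 0.232, from the edgeR fit). In CLP versus sham, 2.78% of all genes passed the FDR, 28.6% had an unadjusted p under 0.05, and 23.8% were called without CLP+DCA replicate 3. Seh1l was called without CLP+DCA replicate 3 (adjusted p = 0.0390). Of 8 genes of the ATF4 stress response and the other GADD genes, 7 were higher in CLP, 1 had an unadjusted p under 0.05 and none passed, with Asns, asparagine synthetase, at 1.99 (adjusted p = 0.127) and Ddit4 at 1.14 (adjusted p = 0.197). Of these 8, 2 were called without CLP+DCA replicate 3, both higher, Asns (adjusted p = 0.0431) and Chac1, which encodes a glutathione-degrading enzyme (log2 fold change 0.76, adjusted p = 0.0451, edgeR). Of 10 proliferation genes 1 had an unadjusted p under 0.05 and none passed, with Ccnd1, which encodes cyclin D1, at -1.47 (SE 0.39, adjusted p = 0.0622, and 0.00793 without CLP+DCA replicate 3) and Ccnb2 at -0.69 (adjusted p = 0.226). With all mice, no gene of these 8 lists passed the FDR in CLP+DCA versus CLP or in CLP+DCA versus sham by edgeR's quasi-likelihood test. Of all genes, 0.00758% and 0.0379% did. In CLP+DCA versus CLP, 10% of all genes had an unadjusted p under 0.05. So had 3 of 29 other p53 targets, 3 of 12 p53 family and regulator genes and 3 of 10 proliferation genes. So had 2 of 5 BTG/TOB and deadenylase genes, 1 of 6 GADD45 partners and 1 of 7 sestrin and GATOR2 genes. In CLP+DCA versus sham, 13.0% of all genes, 5 of the 29 and 3 of the 10 had such a p. So had 3 of 8 ATF4 stress genes, 1 of the 12 and 1 of the 5. The other lists had none in each comparison. Without CLP+DCA replicate 3, edgeR called 8 genes of the lists in CLP+DCA versus CLP, where 4.64% of all genes were, and none in CLP+DCA versus sham (0.0828%). Of the 29 other p53 target genes, 3 were called higher (Plk2, Fdxr and Gls2) and 1 lower (Fas). Called higher were also Tob1, 1 of 5 genes of its list (log2 fold change 1.04, adjusted p = 0.0192), and Birc5, which encodes survivin, 1 of 10 proliferation genes (0.86, adjusted p = 0.0383). Mios, a GATOR2 subunit and 1 of 7 genes of its list (-0.33, adjusted p = 0.0346), and Trp63, 1 of 12 (adjusted p = 0.0286), were called lower. None of the 4 other CDK inhibitor genes, 6 GADD45 partners and 8 ATF4 stress genes was called. The genes of the lists called only without CLP+DCA replicate 3 were named after their values were seen.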

How the data were processed

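Poly(A)-enriched TruSeq v2 libraries of 12 whole livers were sequenced by the authors as paired ends, aligned to mm10 with STAR 2.5 and counted per gene with featureCounts (Subread 1.5.0-p1). The deposited values are raw read counts, without normalization. The authors tested genes with DESeq2. The gene annotation and strand setting are not given in the sources used here.

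Mice were grouped by their labels, 4 per group, and each mouse is 1 replicate. Genes with few reads were removed by filterByExpr of edgeR (minimum count of 10), and the counts were normalized by TMM and tested with edgeR's robust quasi-likelihood test in a single fit of all 12 mice (R 4.3.3, edgeR 4.0.16, limma 3.58.1, DESeq2 1.42.0), with Benjamini-Hochberg adjustment over 13190 genes at an FDR of 0.05. SE is the size of the log2 fold change divided by the square root of F, and 95% intervals take the degrees of freedom of the fit. CPM use the TMM-scaled library sizes, and their logarithm to base 2 a prior count of 2. Within-mouse ratios were compared by two-sided exact permutation tests (scipy 1.17.1), adjusted over 15 tests. Exon lengths and overlapping genes came from GENCODE M21, and promoter windows from RefSeq (GRCm38.p6). The fits were tested on simulated counts with known changes.

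The 9 genes, the related lists and the marker lists, written from general knowledge, were chosen with earlier results of these data known. Named are all 9 genes, of each related list the genes past the FDR and the 2 with the smallest p in CLP versus sham, and the 3 genes most like Cdkn1a and each GADD45 gene. Btg3, Castor1 and Castor2 matched no single row by symbol and were not analysed here. Replicate numbers did not pair the mice: of 12 same-numbered pairs 1 had deviations that correlated at over 0.1 (range -0.46 to 0.55), so that the replicate number entered no main fit. Alternatives were other normalizations, filters and tools, the replicate block, other FDRs and leaving out each mouse. The related lists and correlations without CLP+DCA replicate 3, and the level per kilobase without CLP replicate 2, were added after the data were seen. The reads carry no molecular identifiers, so that counting error is only a lower limit, and it is contained in the SD between mice.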

Additional observations from a re-analysis of the deposited data

Results flagged for a closer look

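For each of the 9 genes, the highest and the lowest of the 4 mice of a group were compared with the others on the log2 CPM scale by Dixon's test at 95%, in 27 groups of values. Chance alone flags about 1 in 20 groups, and 4 of the 27 were flagged. In CLP replicate 3, Gadd45a was at 10.8 CPM, where the other CLP mice had at most 4.17, and Ccng1 was at 51.7 CPM, where they had at most 32.6. In CLP+DCA replicate 3, Btg2 was at 104.7 CPM, where the other CLP+DCA mice had at most 21.5, and Trp53inp1 was at 273.6 CPM, where they had at most 83.9. Beside these values, CLP replicate 3 had the highest summed level of the 5 stellate cell markers (223.1 CPM, against 24.3 to 53.2 CPM over the other groups' mice). CLP+DCA replicate 3 had that of the 11 neutrophil markers (60.8 CPM). Of the 5 stellate cell markers, Des alone gave 172.0 CPM, and Col1a1 reached 19.8 CPM in CLP, against at most 3.72 CPM in sham. Lrat, Reln and Pdgfrb were at most at 11.0, 13.3 and 7.21 CPM in any CLP mouse. The 30 other p53 target genes summed to 825.4 CPM in CLP replicate 3, the highest of the CLP mice but below every sham mouse (854.1 to 1235.4 CPM). The largest parts of this sum were Ei24 and Gls2, with means of 200.8 and 191.7 CPM in CLP. Mdm2, Gadd45b and Btg2 had their lowest CLP level in that mouse. The part of these markers and genes in the 4 values was not tested.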

How the results depend on the processing

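None of the 9 genes passed in the fit of all mice in CLP versus sham. DESeq2 on all 12 mice gave 1 gene (13.0% of all genes), DESeq2 on the 8 mice compared 3 (23.3%), edgeR on those 8 mice 2 (18.3%), voom with sample quality weights 3 (25.9%), an FDR of 0.1 gave 1 (15.3%), and leaving out single mice 0 to 1 (1 without CLP+DCA replicate 3). In CLP+DCA versus sham, DESeq2 on all 12 mice gave 1 gene (Cdkn1a), and other alternatives 0. No alternative gave a gene in CLP+DCA versus CLP. DESeq2 on the 8 mice compared gave no adjusted p for Cdkn1a and Btg2 in CLP+DCA versus sham, nor for Btg2 in CLP+DCA versus CLP. There these genes were counted as not called although this fit did not decide on them. Cdkn1a was higher in CLP than in sham under all 22 alternative fits, at 4.34 to 6.24 on the log2 scale, past the FDR in 5 of them.

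Small fold changes of CLP versus sham turned in sign. With library size alone, which moved the median of all genes to -0.15, Gadd45a was at -0.120, Ccng1 at -0.104, Trp53inp1 at -0.067 and Sesn2 at -0.0055. Gadd45a was at -0.0021 without the acute phase genes in the library sizes, -0.0092 with no filter, -0.0101 by DESeq2 on 12 or on 8 mice and -0.035 with the replicate block. By voom, Gadd45a was at -0.0411, Ccng1 at -0.0762 and Sesn2 at -0.0083 in CLP versus sham, and in CLP+DCA versus CLP Cdkn1a was at -2.03, Gadd45g at -0.138 and Btg2 at -0.340. With the replicate block, Cdkn1a was at -1.41 in CLP+DCA versus CLP, and no gene of the 9 passed the FDR in any comparison. The cause was not tested.

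Leaving out single mice gave these ranges. In CLP versus sham they were -0.535 to 0.456 for Gadd45a, -0.174 to 0.124 for Ccng1, -0.0985 to 0.295 for Trp53inp1 and -0.0408 to 0.311 for Sesn2. In CLP+DCA versus CLP they were -3.31 to 1.29 for Cdkn1a, -0.929 to 0.497 for Gadd45a, -0.772 to 0.182 for Gadd45b, -0.483 to 0.629 for Gadd45g, -0.0347 to 0.0612 for Mdm2, -0.359 to 0.928 for Btg2, -0.0517 to 0.246 for Ccng1, -0.0915 to 0.810 for Trp53inp1 and -0.0666 to 0.368 for Sesn2. In CLP+DCA versus sham they were -0.914 to 0.411 for Gadd45a and -0.113 to 0.840 for Gadd45b. The log2 ratios in CLP+DCA versus CLP ranged from -0.170 to 0.635 for Gadd45a to Gadd45b, from -0.687 to 0.249 for Gadd45a to Gadd45g and from -0.712 to 0.0772 for Gadd45b to Gadd45g.

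The limits are 4 mice per group, 1 time point, low counts of Cdkn1a in sham (17 to 30 reads) and of Gadd45b, and a CLP+DCA group in which 1 mouse decides the mean. In whole liver RNA the cell that held a transcript is not known.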

Other observations

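Over the 12 mice, the 36 pairs of the 9 growth arrest genes did not follow each other equally, and several of their correlations rested on 1 mouse. Btg2 and Trp53inp1 correlated at r = 0.71 in log2 CPM, and at 0.07 without CLP+DCA replicate 3. Gadd45b and Trp53inp1 went from 0.60 to 0.06, and Gadd45a and Mdm2 from -0.27 to -0.63. Among the pairs whose correlation moved least were Cdkn1a with Gadd45g (0.89 and 0.86) and Trp53inp1 with Sesn2 (0.86 and 0.84). Ccng1 had a negative correlation with each of the other 8 genes over the 12 mice, from -0.65 with Gadd45b to -0.03 with Gadd45a, whereas without CLP+DCA replicate 3 it was 0.27 with Gadd45a, -0.01 with Gadd45g and -0.55 to -0.14 with the other 6. These values describe 12 mice of 3 groups, and carry the differences between the groups and between libraries.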
